A study of Caenorhabditis elegans with 4 samples.

Results

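The regions described here are the RNA polymerase II peaks of chromosome III of Caenorhabditis elegans at the third larval stage, L3. They were taken as every row of the authors' combined peak list whose chromosome is III, at any width and q-value, which gave 735 of the 6507 listed peaks. The series holds 4 libraries from hermaphrodites of the wild-type reference strain N2, grown at 20 °C: 2 of chromatin immunoprecipitated (ChIP) with the mouse monoclonal antibody 8WG16 and 2 of input DNA, the unprecipitated chromatin, with 1 of each per replicate. All 4 share strain, genotype, sex and stage, and all came from whole larvae, so the signal mixes every tissue, germ line included. A single peak list, named combined by the authors, was analysed. Each peak in it has 2 coordinates and a q-value, with nothing per replicate and no read count. No spread between replicates and no depth could therefore be computed, and the 95% intervals below cover counting error only and treat peaks as independent.

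RNA polymerase II transcribes all protein-coding genes and many small non-coding RNAs. Its largest subunit ends in a long tail of repeated heptapeptides, the C-terminal domain, which is phosphorylated as the enzyme moves from initiation to elongation, and 8WG16 binds that repeat. Narrow peaks can mark polymerase at a start site, while wide peaks can follow polymerase across the body of a gene or over several neighbouring genes. The latter are frequent in C. elegans, where many genes are co-transcribed as operons and trans-spliced. The autosomes of this nematode have gene-dense, conserved central regions and arms richer in repeats. Coordinates are on WormBase build WS180, and no peak was assigned to a gene because no annotation of that build was used here. For the same reason no peak sequence is shown.

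The 735 peaks covered 848.759 kb, or 6.16% of the chromosome, whose length was taken as the end of the last peak, 13773063. Their density was 53.4 per Mb (49.6 to 57.4, exact Poisson interval). This was the highest density of any chromosome except I, which held 3028 peaks at 201 per Mb. Against II, IV, V and X together, with 2744 peaks at 38.5 per Mb, the density of III was 1.38 times as high (exact interval 1.27 to 1.503, exact conditional binomial test, two-sided, p = 3.34e-14). Pair by pair, III was denser than V by 1.90 times (1.71 to 2.13, exact test, Benjamini-Hochberg over 5, adjusted p = 5.00e-31) and than X by 1.54 times (1.38 to 1.72, exact adjusted p = 4.08e-15). It was denser than II by 1.16 times (1.05 to 1.29, exact adjusted p = 0.00535). The ratio to IV, 1.10 (0.991 to 1.21), did not pass (exact adjusted p = 0.0725). Chromosome III held 0.265 times the density of I (0.244 to 0.287, exact adjusted p = 5.91e-285). Because peaks cluster, the p-values here and in the tests below are too small and the intervals too narrow, by an amount not estimated. In full blocks of 1 Mb the variance of the peak count was 7.46 times its mean on III and 10.03 times on II. Independent peaks at an even density would give a variance near the mean. The pass against II, the smallest difference that passed, is therefore the least secure.

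**Figure D1:**
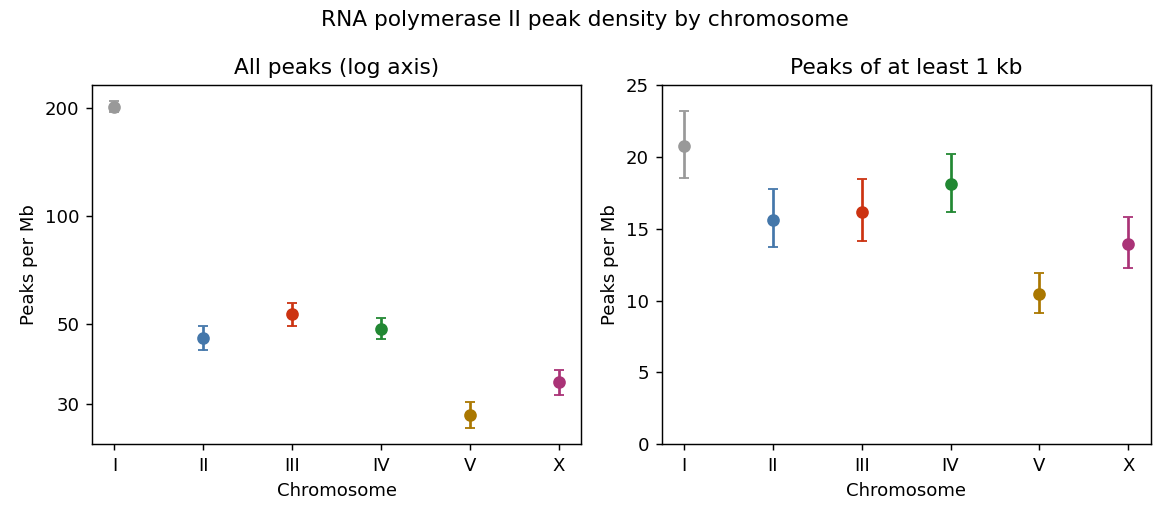
Peaks per Mb on each chromosome, for all peaks on a log axis (left) and for peaks of at least 1 kb on a linear axis (right). Points are densities and bars exact 95% Poisson intervals; III lies at 53.4 per Mb for all peaks, the highest after I, and at 16.2 per Mb for wide peaks, where its interval overlaps those of II, IV and X.

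Widths on III ran from 1 to 19973 bp, with a median of 465 bp, quartiles of 179.5 and 1458 bp, and 10% of peaks above 3271 bp. The median lay below those of II (548 bp), V (569.5 bp), IV (596 bp) and X (720 bp) and above that of I (242 bp). Peaks of at least 1 kb numbered 223, or 30.3% of the peaks of III (exact binomial interval 27.0 to 33.8). The share was 23.9% over the whole list, which chromosome I lowers, and 37.1% on II, IV, V and X together (35.3 to 38.9). It was 34.0% on II, 37.1% on IV, 37.3% on V and 40.3% on X, so III had the lowest share of wide peaks outside I. Its interval overlaps those of II (30.5 to 37.7) and V (33.4 to 41.4) but not those of II, IV, V and X together or of IV (33.9 to 40.5) and X (36.4 to 44.3).

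Among classes of width, the density of III passed the test in each class under 800 bp and in no wider one. The classes were not tested against each other. The interval from 3200 bp up overlaps those of all classes under 800 bp. Those of 800 to under 1600 bp and 1600 to under 3200 bp overlap all of these but 100 to under 200 bp. When the density was compared class by class with II, IV, V and X together, peaks of 100 to under 200 bp stood out at 101 on III against 258 elsewhere, a ratio of 2.02 (1.59 to 2.56, exact test, Benjamini-Hochberg over 7 classes, adjusted p = 1.08e-07). They made up 13.7% of the peaks of III, against 8.05% on V, 8.69% on X, 8.87% on II and 11.3% on IV. On I the share was higher, at 21.3%, and over the whole list it was 15.4%. Per Mb they numbered 7.33 on III, against 5.49 on IV, 4.07 on II, 3.01 on X, 2.25 on V and 42.9 on I. Outside I, the difference was thus smallest against IV. The ratio was 1.52 at 200 to under 400 bp (1.24 to 1.85), 1.44 at 400 to under 800 bp (1.18 to 1.74) and 1.41 under 100 bp (1.12 to 1.75), and each of these passed (exact adjusted p of 0.00014, 0.000658 and 0.00443). At 800 to under 1600 bp the densities were nearly equal, with a ratio of 0.997 (0.782 to 1.26, exact adjusted p = 1). In the widest classes the ratios were 1.24 at 1600 to under 3200 bp (0.981 to 1.54) and 1.30 from 3200 bp up (0.995 to 1.67), and neither passed (exact adjusted p of 0.0723 and 0.0708). The class comparison was added after the widths had been seen.

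**Figure D2:**
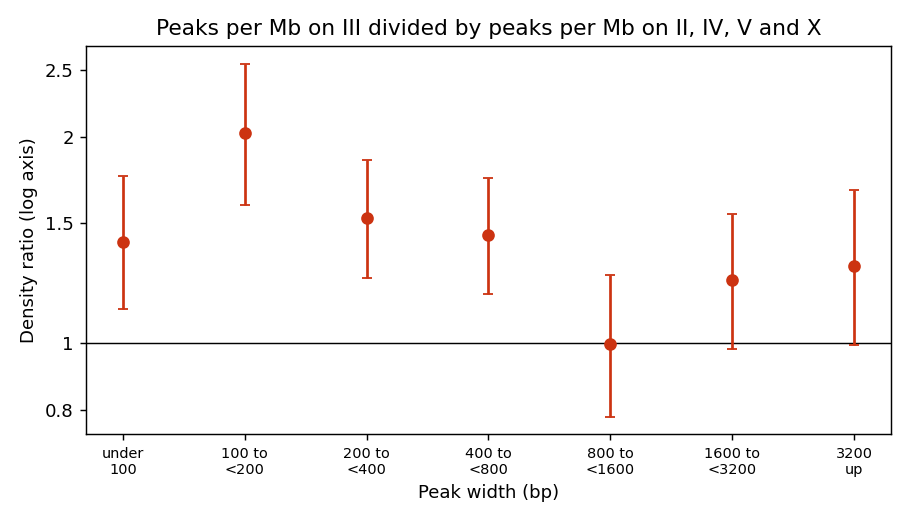
Density on III divided by the density on II, IV, V and X together, by peak width class, on a log axis with exact 95% intervals; the line marks equal densities. The ratio is highest, at 2.02, for peaks of 100 to under 200 bp and 0.997 for peaks of 800 to under 1600 bp.

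Among wide peaks alone, III was not set apart from most chromosomes. Peaks of at least 1 kb lay at 16.2 per Mb on III (14.1 to 18.5), and the ratio to II, IV, V and X together was 1.13 (0.975 to 1.31, exact p = 0.0976). In pairs, III exceeded V by 1.55 times (1.28 to 1.87, exact adjusted p = 2.79e-05) and lay below I at 0.781 times (0.654 to 0.930, exact adjusted p = 0.0122). The ratios to II (1.04, 0.860 to 1.25), IV (0.895, 0.751 to 1.07) and X (1.16, 0.964 to 1.40) did not pass. From 3200 bp up, III held 76 peaks, as many as X on its longer span, and its ratio to V was 1.60 (1.14 to 2.24, exact adjusted p = 0.0135). Against I the direction turned at this width, with 76 peaks on III and 38 on I, a ratio of 2.18 (1.46 to 3.31, exact adjusted p = 0.000343). By the ranking that the q-values imply, 103 regions come before the first listed peak. They were not analysed here and outnumber those 38 peaks. The ratios to II (1.18, 0.846 to 1.66), IV (1.15, 0.830 to 1.58) and X (1.28, 0.919 to 1.78) did not pass.

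Most of the covered sequence lay in few peaks. The 223 peaks of at least 1 kb accounted for 80.3% of the covered base pairs of III, the 76 peaks from 3200 bp up for 46.4%, and the 104 peaks under 100 bp for 0.457%. The widest 86 peaks, 11.7% of the 735, were enough to reach 50.02% of the covered sequence. Reaching that level took 12.3% of the peaks on V, 12.9% on II, 14.1% on X and 14.2% on IV, so cover was shared somewhat less evenly between peaks on III. The widest 1% of its peaks, 7 in number, held 8.92% of its covered base pairs, against 7.16% on X and 8.26% on II.

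The 103 regions of earlier rank lie on unknown chromosomes, so the extremes below are of the listed peaks. The widest peak of the whole list lay here, in the central part, at 7718838 to 7738810, with 19973 bp and a q of 1.03e-254. Its nearest neighbours stood 7171 bp to the left and 28331 bp to the right. The second widest, at 1615896 to 1627078 on the left, had 11183 bp and the lowest listed q of the chromosome, 6.8e-287. It had no neighbour within 1 kb either, with gaps of 19223 and 50305 bp. The next 3 in width were close in size, at 9299 bp (13615442 to 13624740), 9178 bp (10811805 to 10820982) and 9163 bp (3793339 to 3802501). Each of these had a neighbour within 1 kb. The sixth, of 8845 bp at 9764628 to 9773472, had a q of only 1.50e-32. Peaks 7 and 10 in this order were neighbours, of 8086 bp at 12601872 to 12609957 and 7462 bp at 12610378 to 12617839, and only 420 bp separated them. The eighth reached 7767 bp, at 8979671 to 8987437, and the ninth 7748 bp, at 6415255 to 6423002. The 10 widest held 11.6% of the covered sequence of III, with 5 on the right, 3 in the centre and 2 on the left.

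By q, the list of 10 overlapped with the list by width in 4 peaks. The other 6 of the 10 lowest q values belonged to narrower regions. In order of q they were 4262 bp at 8864276 to 8868537 (q 4.74e-218), 3955 bp at 5873830 to 5877784 (7.45e-214), 3846 bp at 13462786 to 13466631 (1.46e-203), 5126 bp at 10213813 to 10218938 (3.55e-203), 2547 bp at 1418228 to 1420774 (6.15e-168) and 2864 bp at 833475 to 836338 (9.68e-154). All 10 were at least 2547 bp wide, and they lay in every part of the chromosome, 4 on the left, 3 in the centre and 3 on the right. A q below 1e-100 was reached by 24 peaks of III, or 3.27%, against 3.67% of the whole list and 4.08% on II, IV, V and X together. On the single other chromosomes the share ran from 3.28% on X to 5.15% on II. The narrowest of the 24 was 2418 bp wide and their median width was 4724.5 bp. On I peaks as narrow as 548 bp reached that q, on V 724 bp, on II 806 bp, on IV 1735 bp and on X 2401 bp.

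Wider peaks tended to have lower q-values, with exceptions at both ends. Ranked over the 735 peaks, −log10 q and width had a Spearman's rho of 0.60, the lowest of the 6 chromosomes, where the others ran from 0.61 on V to 0.84 on I. Peaks of 1 list share libraries and depth, so these are descriptions. The median −log10 q on III was 3.64 under 100 bp, 3.23 at 100 to under 200 bp, 3.45 at 200 to under 400 bp, 4.72 at 400 to under 800 bp, 5.55 at 800 to under 1600 bp, 17.2 at 1600 to under 3200 bp and 53.9 from 3200 bp up. It thus changed little below 400 bp and rose steeply above 1600 bp. On II, IV, V and X together the corresponding medians were 3.13, 2.90, 3.27, 4.21, 6.79, 16.2 and 48.5, so III lay above them in 6 of the 7 classes and below them at 800 to under 1600 bp. The q-values of III were thus near those of the other chromosomes without I, with an overall median −log10 q of 4.66 on III and also on II, IV, V and X.

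**Figure D3:**
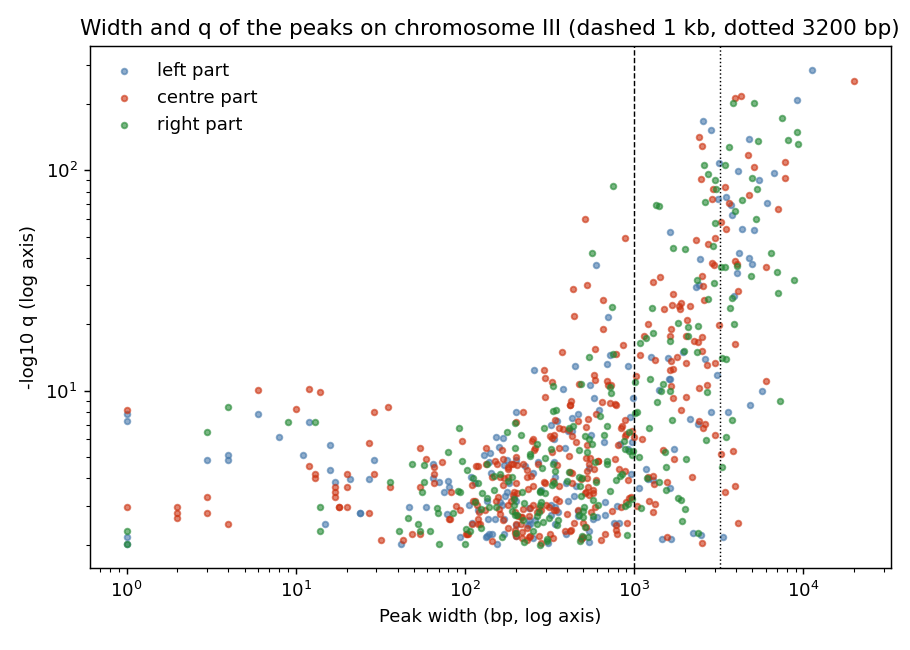
Width and −log10 q of the 735 peaks of III, both on log axes, coloured by part of the chromosome. Most wide peaks have high −log10 q, with a median of 53.9 from 3200 bp up, while 17 peaks to the right of the dotted line lie below a −log10 q of 20.

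Some very wide peaks had a q far above the median of their width class, though for many of them still below the median q of III. Of the 76 peaks from 3200 bp up, 17 had a q above 1e-20 (22.4%, exact binomial interval 13.6 to 33.4), and the shares on II, IV, V and X were 25 to 25.4%. With a limit of 1e-10 the count was 13 of 76 on III, against 6 of 71 on II, 7 of 76 on X, 8 of 84 on IV and 8 of 72 on V. On I it was 0 of 38 at either limit. The widest of the 17 covered 7281 bp at 9698482 to 9705762, with a q of 1.15e-09. The next, at 9044545 to 9050563, had 6019 bp and a q of 7.98e-12. The least significant was 3369 bp wide at 2636048 to 2639416, with a q of 0.00687. Of these 17 peaks, 13 had no neighbour within 1 kb, as had 439 of all 735 peaks of III.

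At the other end, 11 peaks narrower than 1 kb had a q below 1e-20, among 104 under 100 bp and 408 of 100 bp to under 1 kb. The same count was not made for the other chromosomes. Such peaks are not particular to III, since on I the upper quartile of −log10 q at 400 to under 800 bp was 23.6. On III it was 8.58, and on II, IV, V and X together 6.68. The strongest of the 11 on III was 753 bp wide at 12250140 to 12250892, with a q of 6.15e-86, and stood 79041 bp from its left neighbour. A group of 3 such peaks lay side by side in the centre, at 7140188 to 7140626, 7141174 to 7141688 and 7142092 to 7142529. Their widths were 439, 515 and 438 bp, their q-values 1.42e-22, 5.48e-61 and 1.00e-29, and the gaps between them 547 and 403 bp. These wide peaks of high q and narrow peaks of low q were picked out after their values had been seen.

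The list also holds very short entries. Peaks of 1 bp numbered 8 on III, 1.09% of its peaks, as many as on II, IV, V and X together. There were 21 on I, or 0.694%, and 37 among all 6507 peaks. Their q-values on III ran from 7.42e-09 to 0.00979. Peaks of 1 to 19 bp, 43 on III, made up 5.85% of the peaks of III. That was near the 5.13% over the whole list and the 5.94% on I, with 4.05% on II, IV, V and X together. These 43 had a median −log10 q of 4.18. It lay above the 3.51 of the 61 peaks of 20 to 99 bp and the 3.23 of the 101 peaks of 100 to under 200 bp. The same order held on II, IV, V and X together, with 4.86, 3.02 and 2.90. Such entries are far narrower than a sequenced fragment, and what they stand for was not tested.

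Along the chromosome, peaks were densest in the middle, and of the 2 ends the right held more wide peaks. Divided into 3 parts of equal length, III had 179 peaks on the left, 331 in the centre and 225 on the right. The central share was 45.0% (exact binomial interval 41.4 to 48.7), between 48.3% on V and 41.01% on IV, and the intervals of III and these overlap. It was 39.9% on II (36.3 to 43.7), an interval that overlaps too. The intervals of I (39.0%, 37.3 to 40.8) and X (35.2%, 31.5 to 39.2) lie below that of III. The densities were 39.0 (33.5 to 45.1), 72.1 (64.5 to 80.3) and 49.01 peaks per Mb (42.8 to 55.8). Covered sequence was less central, with 204.435 kb on the left, 340.129 kb in the centre and 304.195 kb on the right, so that the centre held 40.1% of it.

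Peaks on the right were also wider. Their median width was 544 bp, against 429 bp in the centre and 393 bp on the left, and 36.0% of them reached 1 kb (29.7 to 42.6), against 27.8% (23.04 to 33.0) and 27.9% (21.5 to 35.1). These intervals overlap. The right part had 1.26 times as many peaks as the left (1.03 to 1.54), which did not pass (exact binomial test, two-sided, Benjamini-Hochberg over the 6 chromosomes, adjusted p = 0.0501). Among peaks of at least 1 kb the counts were 81 on the right and 50 on the left, a ratio of 1.62 (1.12 to 2.35, exact adjusted p = 0.0170). Over all peaks, the right of II also exceeded the left, by 2.44 times (1.97 to 3.04, exact adjusted p = 2.61e-17). On IV the right held 0.635 times the left (0.528 to 0.763, exact adjusted p = 1.97e-06). Among peaks of at least 1 kb the ratio was 1.82 on II (1.28 to 2.62, exact adjusted p = 0.0042). It was 0.658 on IV (0.483 to 0.892, exact adjusted p = 0.0170). On I, V and X neither test passed. These tests of left and right also treat clustered peaks as independent. Their p-values are therefore too small, and the pass for wide peaks on III is not secure. With merged peaks and with the 100 kb at each end left out, the ratio over all widths on III fell to between 1.19 and 1.22 and stayed short of the threshold.

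**Figure D4:**
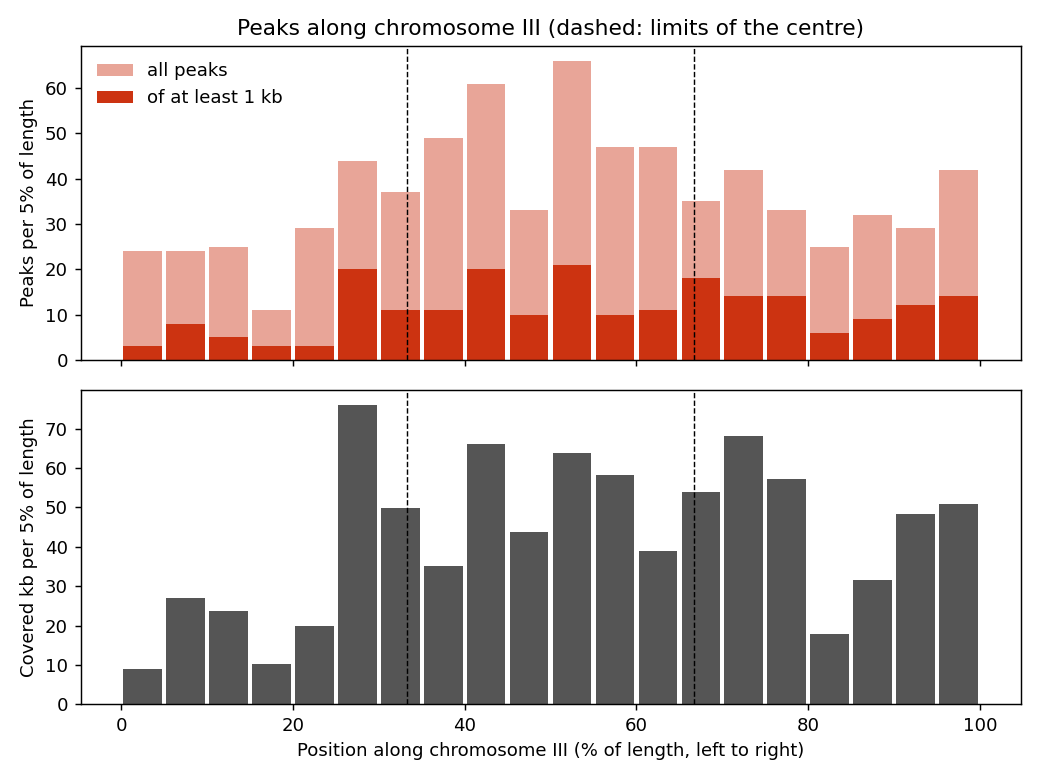
Peaks in 20 equal bins of the length of III, with all peaks in light and peaks of at least 1 kb in dark colour (top), and covered kb in the same bins (bottom); dashed lines bound the central part. The fullest bin, just right of the midpoint, holds 66 peaks, and the bin from 25 to 30% of the length, outside the centre, holds the most covered sequence, 75.935 kb.

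In blocks of 1 Mb, counts and cover mostly went together, with a Spearman's rho of 0.85 over the 13 full blocks of III (a description), but some blocks reached like cover with fewer peaks. The fullest were 5 to 6 Mb with 93 peaks (exact Poisson interval 75.1 to 114) and 7 to 8 Mb with 83, covering 87.755 and 85.091 kb. The blocks at 9 to 10 Mb and 10 to 11 Mb covered nearly as much, 82.427 and 83.945 kb, with only 50 and 52 peaks. In the former 46.0% of peaks reached 1 kb and the median width was 792.5 bp, whereas at 7 to 8 Mb 24.1% did and the median was 331 bp. Outside I, only 1 full block of another chromosome, 11 to 12 Mb on IV with 100.793 kb, covered more than the fullest block of III. The sparsest block was 2 to 3 Mb, with 20 peaks (12.2 to 30.9), 20.49 kb covered and a median width of 177.5 bp. The first 3 Mb held 93 peaks in all, as many as the fullest block alone, and a rise followed at once, to 57 peaks and 71.389 kb at 3 to 4 Mb. Across the 13 full blocks the count varied by a coefficient of variation of 37.5%, near the 35.1% of X and 40.3% of IV and below 47.3% on II and 59.5% on V.

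Few fixed windows of 100 kb on III were empty, though gaps over 100 kb, which such windows can split, took up 17.3% of its length. Of 137 full windows, 6 were empty (4.38%), against 0% on I, 10.9% on IV, 11.8% on II, 11.9% on X and 22.1% on V. No empty windows of III lay next to each other, while V had a run of 5 and II one of 7. The 6 were the windows from 300001, 1300001, 2200001, 3200001, 6700001 and 12700001. The median window held 4 peaks, and 22 windows held 10 or more (16.1%, against 86.7% on I, 11.5% on IV and 1.92% on V). The fullest, 7100001 to 7200000, held 19 (11.4 to 29.7), the highest count of any full window outside I, and included the 3 narrow peaks of low q described above. Next were 14 each at 6300001 to 6400000 and 8700001 to 8800000, and 13 each in 3 windows, from 5600001, 5900001 and 6900001.

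The right end was crowded and the left end was not. The last 100 kb before the final peak end held 21 peaks (13.0 to 32.1), which covered 20876 bp, and the first 100 kb held 7 (2.81 to 14.4), which covered 4023 bp. On the right, 6 of the 21 reached 1 kb, the widest with 5349 bp at 13763118 to 13768466, and the lowest q, 1.16e-128, belonged to 3618 bp at 13718183 to 13721800. Among the other chromosome ends, the right end of II was similar, with 19 peaks, and I had 31 on the left and 14 on the right. The remaining ends, on II left, IV, V and X, held 0 to 6 peaks. The distance between the last peak and the true chromosome end is unknown here and may differ between chromosomes.

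Gaps between neighbouring peaks had a median of 6074 bp on III, with quartiles of 1061 and 22785 bp. The shortest gap was 200 bp, and the shortest on the other chromosomes was 200 to 202 bp. No peaks in the list therefore lie closer than 200 bp, and a chain of regions closer than that would appear as 1 wide peak. The longest gap, 195.158 kb at 1220931 to 1416088, was shorter than the longest on IV (240.014 kb), X (504.968 kb), V (586.862 kb) and II (747.014 kb). The next were 173.574 kb at 2174289 to 2347862, 168.159 kb at 13103169 to 13271327, 162.9 kb at 9929469 to 10092368 and 152.27 kb at 1939906 to 2092175. Gaps over 100 kb numbered 18, with 11 on the left, 5 on the right and 2 in the centre. Together they took up 17.3% of the chromosome, against 26.7% on IV, 27.0% on II, 33.6% on X and 43.6% on V. Median gaps were 10301.5 bp on the left, 4700 bp in the centre and 5293 bp on the right.

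Many peaks came in short chains. Of the 735 peaks, 296 had another within 1 kb, or 40.3% (exact binomial interval 36.7 to 43.9). The share was 54.0% over the whole list, which chromosome I raises, and 39.4% on II, IV, V and X together (37.6 to 41.3), an interval that overlaps that of III. It was 43.8% in the centre, 40.0% on the right and 34.1% on the left. The 296 peaks formed 117 clusters, and 439 peaks stood alone. Pairs made up 73 of the clusters and groups of 3 another 32, while 9 clusters had 4 peaks and 1 each had 5, 6 and 7. With gaps of up to 10 kb allowed, 82.4% of the peaks had a neighbour, and the longest chain spanned 41827 bp.

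**Figure D5:**
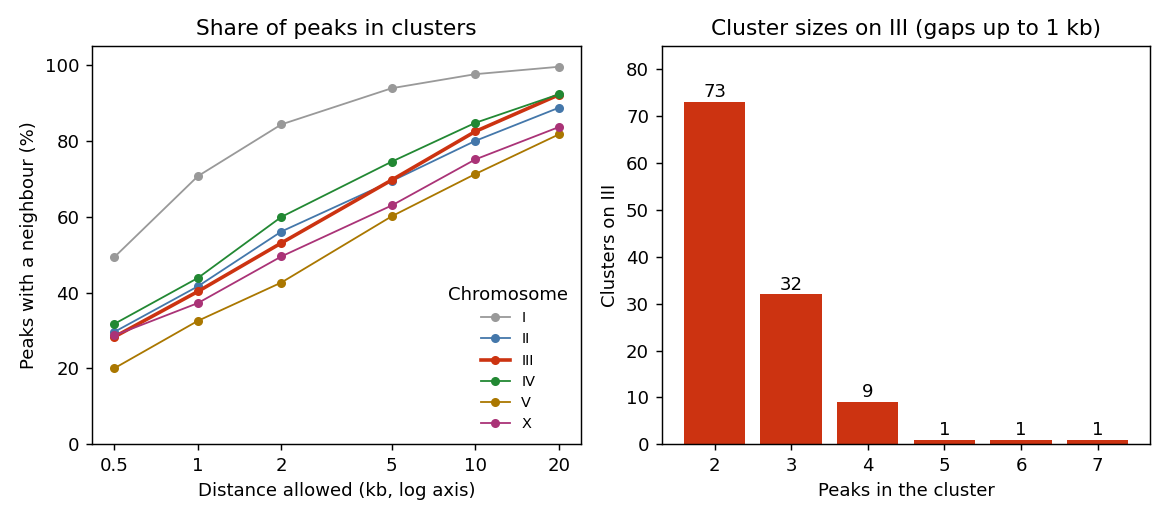
Share of peaks with a neighbour within the distance on the x axis (log axis), by chromosome (left), and the number of clusters on III by number of peaks when gaps of up to 1 kb are allowed (right). III runs between X and IV at 1 kb, with 40.3%, and 73 of its 117 clusters are pairs.

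Clustered peaks were wider than single ones. On III their median width was 725.5 bp, against 322 bp for single peaks, 39.5% reached 1 kb, against 24.1%, and the median −log10 q was 5.996 against 4.19. They held 50.4% of the covered sequence. The same direction was seen on every other chromosome, for example with 684 against 449.5 bp on II and 902 against 488 bp on X. The makeup of clusters varied. Of the 117, 45 (38.5%) had no peak of at least 1 kb, 35 (29.9%) had 1, and 37 (31.6%) had 2 or more. The share without a wide peak was 69.7% on I and 27.1 to 36.9% on the other chromosomes. Widths of direct neighbours were hardly related (Spearman's rho 0.10 over 734 neighbouring pairs, a description).

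The 5 clusters with the most peaks showed different forms. The largest, 7 peaks from 6348527 to 6357205 in the centre, was a run of modest peaks with q-values from 2.62e-11 to 0.00586. One of them was 3429 bp wide and the others 345 to 912 bp, with gaps of 252 to 375 bp. The cluster of 6, from 8974629 to 8988930, was built around the peak of 7767 bp (q 8.80e-110), with a peak of 2262 bp and one of 1414 bp to its left. It also held a peak of 2 bp. The cluster of 5, from 12016488 to 12024122 on the right, had 3 peaks of 1444, 1641 and 2087 bp and no q below 3.57e-20. Of the 9 clusters of 4, the 2 with the longest spans were taken. Of these, the longest was made of wide peaks throughout, with 5438, 3080, 3875 and 4358 bp between 4491118 and 4508676 on the left. Gaps of 234 to 315 bp separated them, so that 95.4% of its 17559 bp were covered, and its q-values ran from 4.79e-91 to 1.81e-12. The second, from 3862929 to 3877057, had peaks of 4196 and 5096 bp between one of 594 bp, itself of low q at 6.61e-38, and one of 2472 bp with a q of 0.00602.

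Short peaks were mostly not satellites of wide ones. Of the 104 peaks under 100 bp, 13 (12.5%) lay within 1 kb of a peak of at least 1 kb, and the median distance to the nearest such peak was 15509 bp. The share was 14.7% on II, 7.28% on I, 7.14% on X, 5.15% on V and 4.35% on IV. For the 408 peaks of 100 bp to under 1 kb the share was 12.3% and the median distance 13028 bp. That share was 20.5% on IV, 18.2% on X, 17.9% on II, 14.3% on I and 13.01% on V. Wide peaks themselves lay within 1 kb of the next wide peak in 42 of 222 gaps (18.9%), against 17.5% on IV and 11.8% on X.

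In the order of the deposited list, which follows q closely but not strictly, peaks of III became more frequent towards the end. They made up 10.8% of the first 651 rows, 6.45% of rows 1302 to 1952 and 15.5% of the last 651. When rows of I were left out the share ran between 17.9% and 27.3% over 10 stretches of this length, with the highest at rows 3905 to 4555 and 18.4% at the end, while III held 21.1% of all rows outside I (exact binomial interval 19.8 to 22.5). Of the first 50 rows outside I, 7 were of III (14.0%, 5.82 to 26.7), and of the first 100, 18.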

How the data were processed

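ChIP and input libraries of 2 replicates each were deposited; larvae were cross-linked with 2% formaldehyde, per the labels' protocols. The shared protocol text speaks of an anti-GFP serum and embryos, whereas the sample labels name 8WG16 and L3, which were followed. The authors deposited 1 combined list with a q-value (a p-value adjusted by the authors) for each peak. Per the file headers it is on WormBase WS180, and its rows name PeakSeq. Not given in the sources used here are PeakSeq's version, the aligner and how replicates were combined. Start and end were read as 1-based. Trying 0 to 500 ranks before the first row, q times rank was equal in 2414 of 6506 neighbouring pairs with 103 and in 0 with any other number (relative tolerance 1e-10). Depth is unknown, and ChIP was not tested against input here.

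Chromosome III rows were selected by name. Peaks were placed by midpoint, and the end of the last peak served as chromosome length. Densities carry exact Poisson and shares exact Clopper-Pearson intervals (scipy 1.17.1). Pairs of densities were compared by an exact conditional binomial test, left and right parts by an exact binomial test, with Benjamini-Hochberg adjustment and a threshold of 0.05. These tests count peaks, not samples. The density ratio and its interval were tested on simulated counts of independent peaks, which cannot show how they hold for clustered peaks. Gaps, clusters, merging and parts were checked on a small made-up example. Regions named are the 10 lowest q, the 10 widest, the 5 largest clusters, the 5 longest gaps and the fullest and sparsest blocks and windows; others are said to be picked later. The members and comparisons were chosen with earlier results of these data known. The peaks were not assigned to genes, since the gene table at hand is of another build.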

Additional observations from a re-analysis of the deposited data

How the results depend on the processing

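No paired analysis was possible because the only list analysed combines the replicates, and for the same reason no replicate could be left out. The reference without V, the list without the 100 kb at each end and the list without peaks of 100 to under 200 bp were chosen after seeing the data. The ratio of III to II, IV, V and X together passed the exact test under 7 of 8 alternatives with a test and missed it for peaks of at least 1 kb (1.13, exact p = 0.0976). In covered base pairs it was 1.26. Without V in the reference it was 1.24. Covered base pairs gave 0.668 against I, 1.61 against V and 1.32 against X. Against II the exact test was missed in the best 50% (1.03) and 25% (1.01) by q and for peaks of at least 1 kb (1.04), and against X for peaks of at least 1 kb (1.16). Against IV it passed after merging within 500 bp (1.13, exact adjusted p = 0.0259) or 1 kb (1.13, 0.0432) and turned for peaks of at least 1 kb (0.895, 0.261). The ratio of right to left passed the exact test in the best 25% by q (1.93), for peaks of at least 100 bp (1.34), for peaks of at least 1 kb (1.62) and with the outer 25% of the length at each end as the parts (1.42). The centre's share was 41.3% for peaks of at least 1 kb, 40.1% of covered base pairs and 62.7% when the centre was the middle 50%. The median width rose to 1684.5 bp in the best 50% by q, 2893 bp in the best 25% and 572 bp without peaks under 100 bp. The share of peaks of at least 1 kb was 63.3%, 88.2% and 35.3% in these sets, 34.4% and 38.7% after merging within 500 bp and 1 kb, and 35.2% without peaks of 100 to under 200 bp. The share with a neighbour within 1 kb was 34.9% in the best 50%, 30.6% in the best 25%, 34.5% for peaks of at least 1 kb and 18.6% after merging within 500 bp, and 53.1% and 28.3% with distances of 2 kb and 500 bp. Clusters numbered 43 in the best 50% by q and 20 in the best 25%, where fewer peaks remained. The cause of these shifts was not tested.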
